A study of Mus musculus with 24 samples.

Results

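Ptgdr2 and Tbxa2r encode receptors for prostanoids, and both were read in γδ T cells sorted by PLZF, with opposite leanings. They are 2 of the 7926 genes in the deposited expression table, taken by name. Ptgdr2 and Tbxa2r were chosen by their normalized values, which differed between PLZF+ and PLZF- cells, and every gene of the table had been kept by the authors for a difference between tissues, so the PLZF and tissue differences of the pair below are descriptions without a test. Cells came from male C57Bl/6 mice aged 16 to 22 weeks that carried a PLZF-GFP reporter; the labels name no treatment. PLZF+ and PLZF- cells were each taken from spleen, inguinal lymph node, lung and the epididymal fat, called adipose tissue here, which gives 8 groups of 3 Smart-seq2 libraries and 24 libraries in all. The series text speaks of 2 replicates per subset, each pooled from 10 mice, and nothing says whether the 3 libraries of a group are separate pools, so the spread between them may be partly technical. All cells carried the reporter allele, and the subsets differ in what the sort selected, not in genotype.

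Prostanoids are lipids made from arachidonic acid by cyclooxygenases and then by synthases that give each prostanoid its form. PTGDR2, also called CRTH2, binds prostaglandin D2, couples to inhibitory G proteins and draws type 2 helper T cells, eosinophils, basophils and group 2 innate lymphoid cells towards its ligand. TBXA2R binds thromboxane A2, the short-lived product of platelets and macrophages, couples to G proteins that activate phospholipase C, and is best known from platelets and smooth muscle. PLZF is a transcription factor of innate-like lymphocytes, and many PLZF+ γδ T cells of adipose tissue and lung make IL-17.

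Ptgdr2 (ENSMUSG00000034117) lies on chromosome 19 at 10937160 to 10942511 of GRCm38 (mm10), plus strand, with 3 exon blocks of 2644 bases in total. Tbxa2r (ENSMUSG00000034881) lies on chromosome 10 at 81328731 to 81335172, plus strand, with 4 exon blocks of 1919 bases. The 250 bases before a RefSeq start of each gene (GRCm38.p6, plus strand) are printed because the pair moved in opposite directions. Capitals mark matches to 4 short motifs searched on both strands, which were picked after these letters had been seen. AGGTCA is known from ROR and other nuclear receptors, AGATAA from GATA factors, CTTTGA from TCF and LEF factors, and TGACTCA from AP-1.
Ptgdr2, chr19:10936910-10937159: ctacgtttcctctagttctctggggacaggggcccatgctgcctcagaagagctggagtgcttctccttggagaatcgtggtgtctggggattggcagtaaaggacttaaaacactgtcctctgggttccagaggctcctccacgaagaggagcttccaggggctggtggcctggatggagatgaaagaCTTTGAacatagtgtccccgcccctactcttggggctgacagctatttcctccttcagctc
Tbxa2r, chr10:81328018-81328267: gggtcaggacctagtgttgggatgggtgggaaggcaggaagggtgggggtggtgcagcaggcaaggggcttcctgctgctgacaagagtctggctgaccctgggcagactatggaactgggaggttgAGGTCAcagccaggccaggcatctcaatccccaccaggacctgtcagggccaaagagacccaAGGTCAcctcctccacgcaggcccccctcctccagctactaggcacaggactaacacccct
The Ptgdr2 window held 1 CTTTGA, starting 61 bases before the start site, and none of the other 3. The printed Tbxa2r window, whose start lies upstream of the annotated gene start given above, held AGGTCA at 123 and at 61 bases before its start site, and a second annotated start held 1 more match on the other strand, 135 bases before it. AGGTCA was in 14.03% of all 32817 promoter windows of this length and CTTTGA in 13.83%, so such matches are common, and they are descriptions of the letters and no evidence of binding.

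Libraries differed in depth and purity. Whole reads could be worked back from the deposited values for 7920 genes (99.92%), and libraries held 46494 to 818825 of these reads. Lung libraries 2 and 3 were shallow in both subsets, at relative depths of 0.1699 and 0.1769 (PLZF-) and 0.3124 and 0.3289 (PLZF+), where the median library lies above 1. Values below are normalized reads, that is recovered reads divided by relative depth, and 3 reads equal 17.66 and 16.96 normalized reads in the shallowest pair. Relative depth is the scaling of each library in the deposited normalized values and does not simply follow its reads. PLZF- adipose library 3 had 471510 recovered reads at 0.7623, and PLZF+ spleen library 3 had 352888 at 1.6233. Adipose libraries 2 and 3 stood apart in both subsets, with 1.13% to 1.83% of reads on 6 endothelial markers against 0.00918% and 0.0547% in libraries 1. PLZF itself (Zbtb16) was not analysed here, so the sort was not checked from its transcript. Of 9 markers listed for γδ T cells 6 were analysed, Tcrg-C2, Tcrg-C4, Cd3d, Cd3e, Cd3g and Cd247. The last 4 are CD3 genes, which αβ T cells also express, so the share of the 6 does not check that the cells were γδ. The 6 had reads in every group, at 0.0715% to 0.972% of reads in adipose tissue and 1.12% to 2.05% in lymph node. In such bulk samples, fewer cells of a type and less RNA per cell cannot be told apart.

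Ptgdr2 was highest in PLZF+ cells of lymph node. The 3 libraries held 291.7, 373.4 and 425.8 normalized reads (mean 363.6 ± 67.6 SD, n = 3), from 477 to 684 reads each. PLZF- lymph node libraries held 73.67, 112.5 and 56.43 (80.86 ± 28.71, n = 3), the second highest group and above every library of the other 3 tissues.
Every PLZF+ lymph node library lay above every PLZF- one, and the means differed 4.5-fold.
In spleen, the PLZF+ libraries held 34.64, 49.78 and 17.25 normalized reads of Ptgdr2 (33.89 ± 16.28), whereas 6.6, 1.2 and 5.53 were found in the PLZF- ones (4.441 ± 2.861). The groups did not overlap, and the means differed 7.63-fold. PLZF+ cells of adipose tissue held 13.13, 5.97 and 32.8 (17.3 ± 13.89) and those of lung 20.51, 12.8 and 18.24 (17.19 ± 3.963).
PLZF+ cells of spleen, adipose tissue and lung overlapped and had no order beyond their spread.
PLZF- cells of adipose tissue and lung had few reads of Ptgdr2. In adipose tissue they had 4, 3 and 0 reads (1.753 ± 1.694 normalized reads) and in lung 4, 0 and 0 (0.8271 ± 1.433). In the 2 shallow PLZF- lung libraries a count of 0 allows up to 17.66 and 16.96 normalized reads, about the level of PLZF+ lung, so the lung difference rests on library 1, with 44 reads in PLZF+ and 4 in PLZF- cells.

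The mean log2 difference of Ptgdr2 between PLZF+ and PLZF- cells over the 4 tissues was 2.74 ± 0.35 (SE) on the deposited scale. By tissue it was 3.06 in adipose tissue, 2.66 in lung, 3.02 in spleen and 2.20 in lymph node, each ± 0.70. On the deposited scale 0 reads in a shallow library stand as high as a few reads in a deep one. PLZF- lung libraries 2 and 3, with 0 reads, have -0.68 and -0.73, and library 1, with 4 reads, has -0.75. The lung difference and its spread therefore depend on depth. Whether the 4 tissue differences differ is a separate question from their average, but the gene was chosen with its values in all tissues in view, so this test is not independent of the choice either. The interaction of PLZF and tissue did not pass (limma, F = 0.32 on 3 degrees of freedom, adjusted p = 0.95), which does not show that the differences are equal. Among all genes 0.0683% passed this test, 4 of 5858. By recovered values PLZF+ libraries lay above PLZF- ones without overlap in all 4 tissues for Ptgdr2, as for 1.19%, 2.88%, 5.91% and 4.27% of all 7920 genes in adipose tissue, lung, spleen and lymph node, a contrast that chose the gene. In adipose tissue the nearest libraries held 4 reads (PLZF+ library 2, 5.97 normalized) and 3 reads (PLZF- library 2, 3.38 normalized). A separation is therefore not established at this depth in adipose tissue, nor in lung.

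Tbxa2r leaned the other way. PLZF- spleen libraries held 174, 114.8 and 222.6 normalized reads (170.5 ± 54, n = 3), and PLZF- lymph node libraries 145.4, 103.5 and 185.5 (144.8 ± 41.03). These 2 highest groups overlapped and stood above every other library. PLZF+ lymph node libraries held 27.53, 26.62 and 40.46 (31.54 ± 7.742), and PLZF+ spleen libraries 33.22, 35.31 and 14.78 (27.77 ± 11.3).
PLZF- lay above PLZF+ without overlap in both tissues, by 4.59-fold in lymph node and 6.14-fold in spleen. Markers of αβ T cells (4 of 6 analysed) moved with this in lymph node, at 0.793% to 1.07% of reads in PLZF- and 0.557% to 0.619% in PLZF+ libraries, and overlapped in spleen (0.652% to 0.865% and 0.619% to 0.69%). B cell markers (6 of 6 analysed) took 0.24% to 0.307% and 0.111% to 0.119% in lymph node and overlapped in spleen. The part of these cells in the difference was not tested.
In adipose tissue, PLZF- libraries held 30.04, 6.76 and 7.87 normalized reads of Tbxa2r and PLZF+ libraries 2.63, 2.99 and 0, which are 2, 2 and 0 reads. The recovered values of these groups did not overlap, but 0 reads in PLZF+ library 3 allow up to 7.57 normalized reads, above PLZF- library 2, so a separation is not established at this depth. In lung the groups overlapped: PLZF- libraries held 44.66, 0 and 0, while 15.85, 0 and 12.16 were found in PLZF+ ones.
Library 1 was the higher one of each lung group and again the only deep one, with 72 reads in PLZF- and 34 in PLZF+ cells.

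Tbxa2r differed between PLZF+ and PLZF- cells by -1.79 ± 0.48 (log2, SE) over the 4 tissues. By tissue the log2 difference was -2.31 in adipose tissue, -2.65 in spleen, -2.17 in lymph node and -0.03 in lung, each ± 0.95. The lung value has no stable sign: it was -1.48 without lung libraries 2 and 3 and 0.76 on recovered reads plus 1. The interaction of PLZF and tissue did not pass (limma, F = 1.57 on 3 degrees of freedom, adjusted p = 0.775), and its adjusted p was 0.0545 with library weights. As for Ptgdr2, this test is not independent of the choice of the gene, and it does not show that the differences are equal. PLZF- libraries lay above PLZF+ ones by their recovered values in 3 tissues, as did 2.3%, 6.94% and 3.93% of all 7920 genes in adipose tissue, spleen and lymph node; in lung, where Tbxa2r overlapped, the share was 1.41%.

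**Figure D1:**
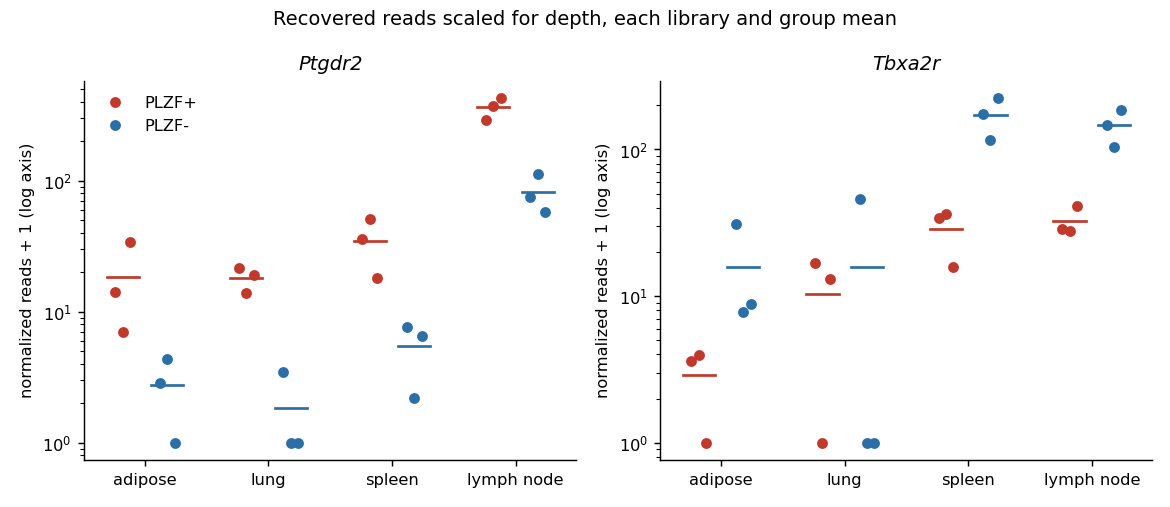
Normalized reads plus 1 (log axis) of Ptgdr2 (left) and Tbxa2r (right) in adipose tissue, lung, spleen and lymph node; points are libraries, bars are means of 3, red is PLZF+ and blue PLZF-. Ptgdr2 reaches 425.8 in PLZF+ lymph node and Tbxa2r 222.6 in PLZF- spleen, and the points at 1 are libraries with 0 reads.

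**Figure D2:**
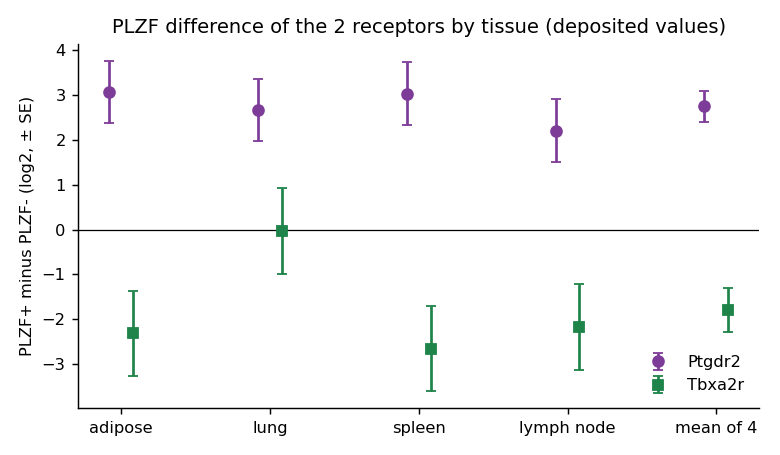
PLZF+ minus PLZF- on the deposited log2 scale for Ptgdr2 (circles) and Tbxa2r (squares) in each tissue and averaged over the 4; bars are ± SE from the fit over all genes. Ptgdr2 lies between 2.20 and 3.06 in every tissue, Tbxa2r between -2.65 and -2.17 in 3 tissues and at -0.03 in lung. The lung values include shallow libraries with 0 reads, whose deposited values depend on depth.

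Reads of the 4 CD3 genes (Cd3d, Cd3e, Cd3g and Cd247) differed between libraries too, so reads of the receptors were also set against them. The products of the CD3 genes carry the signal of the T cell receptor, and T cell content itself was not measured. This scale of reads per 1000 CD3 reads was added after the values were seen. The share of all genes that separate on it was not worked out, so separations on it are descriptions only. CD3 normalized reads ran from 368.6 in PLZF- adipose library 3 to 4210 in PLZF+ lymph node library 3. They were lower in PLZF- than in PLZF+ cells of adipose tissue (368.6 to 1090 against 1272 to 2378) and lung (503.1 to 1106 against 1315 to 2294). In spleen and lymph node the subsets overlapped. Where CD3 reads differ between the subsets, this scale also shifts the PLZF ratios. Per 1000 CD3 reads, Ptgdr2 stood at 96.7, 91.7 and 101 in PLZF+ lymph node (96.5 ± 4.71), closer together than on the depth scale. PLZF+ cells of the other tissues had means of 11.5 ± 12.4 in adipose tissue, 9.67 ± 0.704 in lung and 11.1 ± 3.5 in spleen.
Lymph node stood apart on this scale too, and the other 3 tissues overlapped.
PLZF- lymph node libraries had 28.4, 35 and 19.1 Ptgdr2 reads per 1000 CD3 reads (27.5 ± 8), and PLZF- cells of the other tissues 0 to 4.57. PLZF+ stayed above PLZF- without overlap in spleen and lymph node but not in adipose tissue, where PLZF+ library 2 had 3.24 and PLZF- library 2 had 4.57. In lung the recovered values did not overlap, but PLZF- libraries 2 and 3 had 0 reads over 87 and 89 CD3 reads, which allows up to 34.5 and 33.7 per 1000, above every PLZF+ lung library.

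Tbxa2r per 1000 CD3 reads was 63.8, 56 and 92.1 in PLZF- spleen (70.6 ± 19) and 56.1, 32.2 and 62.6 in PLZF- lymph node (50.3 ± 16.1). PLZF- adipose libraries had 27.6, 9.13 and 21.4 and PLZF- lung library 1 had 40.4, from 72 reads, so these lay nearer to the lymphoid groups than on the depth scale. PLZF+ cells had 6.66 to 10.5 in spleen, 6.54 to 9.61 in lymph node, 0 to 6.91 in lung and 0 to 1.62 in adipose tissue. On this scale too PLZF- lay above PLZF+ without overlap in adipose tissue, spleen and lymph node, and overlapped it in lung. No share of all genes was worked out to set beside this. The means differed 21.3-fold in adipose tissue, against 7.96-fold on the depth scale, 7.72-fold in spleen and 5.97-fold in lymph node. The adipose ratio rests on 4 reads in PLZF+ cells, and the 0 reads in PLZF+ library 3 allow up to 5.95 per 1000, below the lowest PLZF- value.

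**Figure D3:**
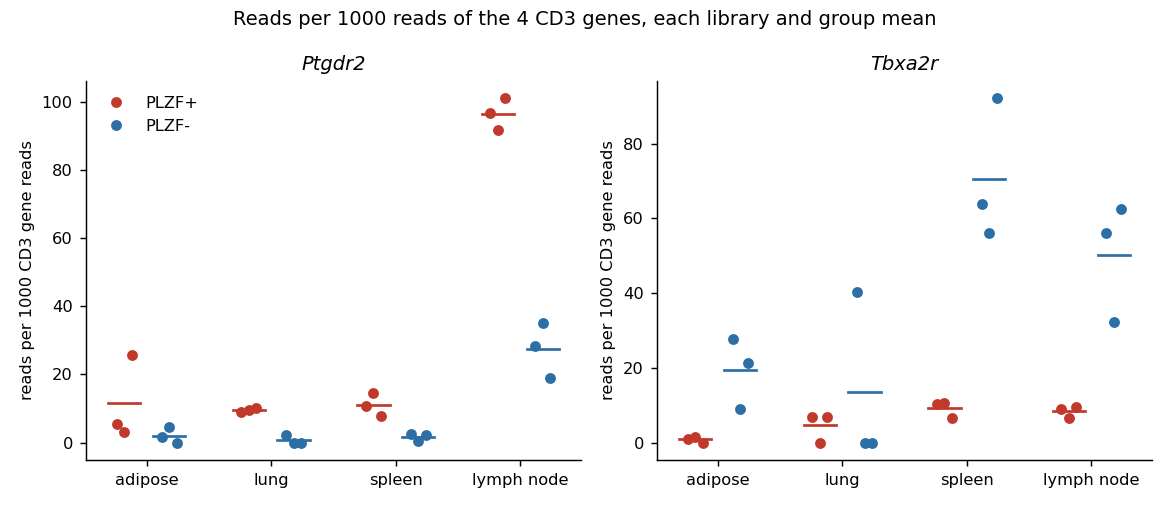
Reads of Ptgdr2 (left) and Tbxa2r (right) per 1000 reads of 4 CD3 genes, for each library (points) with the mean of 3 (bars), PLZF+ in red and PLZF- in blue. PLZF+ lymph node lies at 91.7 to 101 for Ptgdr2, while the other PLZF+ tissues have means of 9.67 to 11.5.

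The balance of the receptors is a ratio within each library, in which depth and CD3 scaling cancel, though shallow libraries leave it imprecise. Counted as reads per kilobase of exon, Ptgdr2 made up 88.5%, 91.1% and 88.4% of the sum of both genes in PLZF+ lymph node and 26.9%, 44.1% and 18.1% in PLZF- lymph node. In spleen it made up 43.1%, 50.6% and 45.9% in PLZF+ cells and 2.7%, 0.8% and 1.8% in PLZF- cells.
PLZF+ cells thus held both at similar levels in spleen and mostly Ptgdr2 in lymph node, while Tbxa2r prevailed in PLZF- spleen. In PLZF- lymph node Tbxa2r was the larger per kilobase in all 3 libraries, but in library 2 the plain reads were 137 of Ptgdr2 and 126 of Tbxa2r (52.1% Ptgdr2, exact 95% binomial interval 45.9% to 58.3%).
The share of plain reads had exact 95% binomial intervals of 88.9% to 93.5% in PLZF+ lymph node library 1 and 2.1% to 5.9% in PLZF- spleen library 1, which cover counting error only. In adipose tissue the share per kilobase was 78.4%, 59.2% and 100% in PLZF+ libraries, from 6 to 13 reads of both genes, and 4.3%, 26.6% and 0% in PLZF- libraries. In lung it was 48.4%, 100% and 52.1% in PLZF+ cells and 3.9% in PLZF- library 1, and PLZF- libraries 2 and 3 had no read of either gene. PLZF+ shares lay above PLZF- shares in each of the 4 tissues, as the choice of the pair implies.

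**Figure D4:**
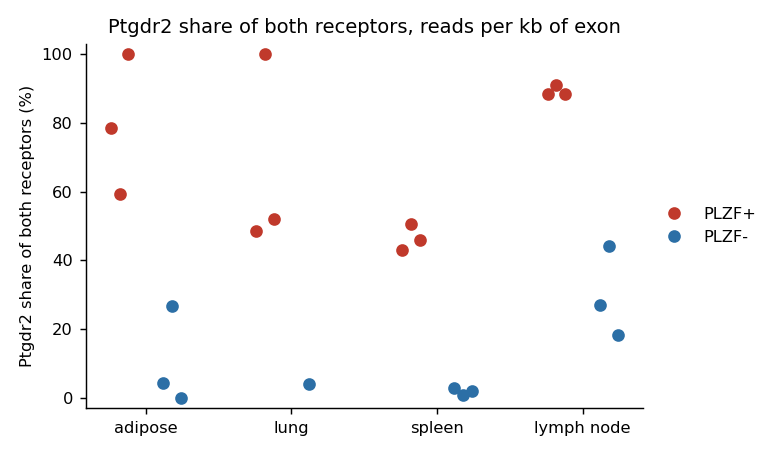
Ptgdr2 as a percentage of the sum of Ptgdr2 and Tbxa2r, both as reads per kilobase of exon, for each library with a read of either gene; PLZF+ red, PLZF- blue. PLZF+ lymph node lies at 88.4% to 91.1% and PLZF- spleen at 0.8% to 2.7%.

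Limits of the reads themselves differ between the genes. The last part of Ptgdr2, chromosome 19 from 10941481 to 10942511, is shared with Ccdc86 on the other strand; the 1031 shared bases are 39% of the exon length of Ptgdr2. No strand setting is given in the sources used here and Ccdc86 was not analysed here, so reads of that stretch cannot be assigned to one of them. No annotated gene overlapped Tbxa2r. Markers of other cells were read in the same libraries. Of 7 platelet markers 2 were analysed, Pf4 and Ppbp, and they took 0.00247% to 0.00707% of reads in PLZF- spleen, 0.00701% to 0.0139% in PLZF+ spleen, at most 0.000333% in PLZF- and at most 0.000197% in PLZF+ lymph node. Ppbp was at 0 in all 6 lymph node libraries. Of 9 markers of eosinophils, basophils and mast cells 2 were analysed, Siglecf and Mcpt8. They moved with Ptgdr2 between the subsets of spleen, at 0.00112% to 0.00202% of reads in PLZF+ and 0% to 0.000428% in PLZF- libraries (at most 9 reads in a library), and of lung library 1, at 0.0283% and 0.00154%. In lung libraries 2 and 3 their share was 0.0284% and 0.0235% for PLZF+ cells, against 0.0319% and 0.0108% for PLZF- cells. Mcpt8 had at most 3 reads in any library, so the share in PLZF+ lung rests mainly on Siglecf. Macrophage markers took 4.64% to 7.55% of reads in the PLZF+ lung libraries, and which cells carried Siglecf was not tested. In PLZF+ lymph node, where Ptgdr2 was highest, Siglecf and Mcpt8 took 0.000229% to 0.000788%, which is 1 to 4 reads. Adipose libraries held 2, 0 and 0 reads of them in PLZF+ cells and 2, 0 and 1 in PLZF- cells. Across all 24 libraries Siglecf correlated with Ptgdr2 at -0.26 and Mcpt8 at -0.15. Markers of αβ T cells, the class to which type 2 helper cells belong, ran from 0.0269% in adipose tissue to 1.07% in PLZF- lymph node. Over 24 libraries Trbc1 and Trbc2, the constant regions of the T cell receptor β chain, correlated with Tbxa2r at 0.81 and 0.83 and with Ptgdr2 at 0.55 each. Trac and Cd8b1, also analysed, had 0.72 and 0.67 with Tbxa2r and 0.55 and -0.03 with Ptgdr2. The 4 CD3 genes had 0.48 to 0.76 with Tbxa2r and 0.71 to 0.83 with Ptgdr2. These correlations describe libraries that also differ in depth and in CD3 reads. The part of αβ T cells and of the other marked cells in the receptor values was not tested. Of 6 markers of group 2 innate lymphoid cells 3 were analysed, Il1rl1, Il5 and Areg. In lymph node they took 0.00158% to 0.00298% of reads in PLZF+ and 0.00153% to 0.00216% in PLZF- libraries. In adipose tissue it was 0.00601% to 0.0327% and 0.00424% to 0.126%, and in spleen 0.00202% to 0.00595% and 0% to 0.003%. In lung PLZF+ libraries lay above PLZF- ones, at 0.0235% to 0.0265% and 0.0151% to 0.0177%. The part of group 2 innate lymphoid cells in the Ptgdr2 values was not tested.

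Of the 7 other prostanoid receptors, Ptger4 and Ptgfr could be analysed. Ptger4, an EP4 receptor for prostaglandin E2, was read in all 24 libraries. Its normalized reads were 192.6 ± 92.69 in PLZF- adipose tissue, 95.95 ± 38.32 in PLZF+ adipose tissue and 39.02 ± 7.699 in PLZF- lymph node, its lowest group. Its log2 difference between PLZF+ and PLZF- cells was -0.30 ± 0.27 (limma, adjusted p = 0.934), and in PLZF- cells it was higher in adipose tissue than in the lymphoid tissues, meaning the average of spleen and lymph node (1.85 ± 0.46, adjusted p = 0.00435). With quantile scaling, which sets the same distribution of values in every library, that difference was 0.77 (adjusted p = 0.301). Ptgfr, the receptor for prostaglandin F2α, was low, with at most 14 reads in a library, and was higher in lung than in the lymphoid tissues in both subsets (PLZF+ 2.73 ± 1.05, adjusted p = 0.0484; PLZF- 4.18 ± 1.05, adjusted p = 0.0029). With quantile scaling the PLZF+ value was 2.13 (adjusted p = 0.137) and the PLZF- one 3.06 (adjusted p = 0.024). PLZF- lung libraries held 14, 5 and 0 reads of Ptgfr, and the deposited value for 0 reads in the shallow library 3 depends on depth.

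Of 10 prostanoid synthesis genes, 4 were tested. None passed in the PLZF comparison over 4 tissues, in which 1.18% of 5858 genes passed. Between tissues many genes of this table passed, which had been filtered for such a difference: 34.2% (adipose tissue) and 37.8% (lung) of genes against the lymphoid tissues within PLZF+ cells, and 38.4% and 77.3% within PLZF- cells. These shares depend on the scaling. The median of all genes moved from 1.17, 1.39, 0.55 and 2.18 on the deposited scale to 0.02, -0.01, -0.33 and 0.15 with quantile scaling, and 25.6%, 20.8%, 33.2% and 32% then passed. In a fit with a block within tissue the group terms stand for libraries 1, so its tissue differences are not those of group means. Its counts, 247, 219, 386 and 539 of 5858 genes, are therefore no check of the shares above. Ptgs2, the inducible cyclooxygenase, was higher in lung (6.57 ± 0.93 log2, limma adjusted p = 9.13e-05 in PLZF+; 6.11 ± 0.93, adjusted p = 0.000188 in PLZF-) and in adipose tissue (4.85 ± 0.93, adjusted p = 0.00126; 4.48 ± 0.93, adjusted p = 0.00141). PLZF+ lung libraries held 124, 291.3 and 161.2 normalized reads of it, while 0, 0.7829 and 1.245 were found in PLZF+ lymph node.
Its 4 calls held with quantile scaling, with log2 differences of 3.17 to 5.78.
Ptgs1, the constitutive cyclooxygenase, passed in adipose tissue in both subsets (PLZF+ 2.63 ± 0.89, adjusted p = 0.0325) and in PLZF- lung. Tbxas1, thromboxane A synthase, passed in adipose tissue in both subsets and in PLZF+ lung (2.40 ± 0.70, adjusted p = 0.0187), with 71.16 ± 19.86 normalized reads there and 7.641 ± 3.12 in PLZF+ lymph node. Ptgds, a prostaglandin D synthase, passed in PLZF+ adipose tissue (2.14 ± 0.81, adjusted p = 0.0477), where each library held 2 reads of it; no lymph node library of that subset held any, while the spleen libraries held 4, 1 and 15, a higher mean in normalized reads (4.215) than in adipose tissue (3.553). With quantile scaling none of the calls for Ptgs1, Tbxas1 and Ptgds passed (adjusted p 0.0888 to 0.436), and the lung differences of Ptgds, not called on either scale, turned negative, as did that of Ptgs1 in PLZF+ cells.

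Among genes of prostanoid uptake and breakdown, 3 of 6 were tested and none passed in the PLZF comparison. Hpgd, which inactivates prostaglandins, was higher in lung than in the lymphoid tissues in both subsets (PLZF+ 3.60 ± 1.03, limma adjusted p = 0.017; PLZF- 4.50 ± 1.03, adjusted p = 0.00165). The uptake carrier Slco2a1 passed in PLZF- adipose tissue (4.48 ± 1.45, adjusted p = 0.0197) and PLZF- lung (5.15 ± 1.45, adjusted p = 0.00525). Its reads were higher in the impure adipose libraries, with 5.253, 52.24 and 133.7 normalized reads in PLZF+ adipose libraries 1 to 3, beside 0.0547%, 1.13% and 1.62% of reads on endothelial markers. Cbr1, a carbonyl reductase that acts on prostaglandins, was lower in PLZF- lung (-1.63 ± 0.49, adjusted p = 0.00783). With quantile scaling Hpgd kept both lung calls and Slco2a1 that in lung, while Slco2a1 in PLZF- adipose tissue missed the threshold (adjusted p = 0.0601) and Cbr1 passed as lower in all 4 comparisons (-3.67 to -1.69, adjusted p 0.000354 to 0.0404). Macrophage markers (8 of 9 analysed) took 3.05% to 8.82% of reads in lung and 0.00638% to 2.08% in lymph node, and adipocyte markers up to 3.04% in adipose tissue; the part of such cells in the prostanoid genes was not tested.

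**Figure D5:**
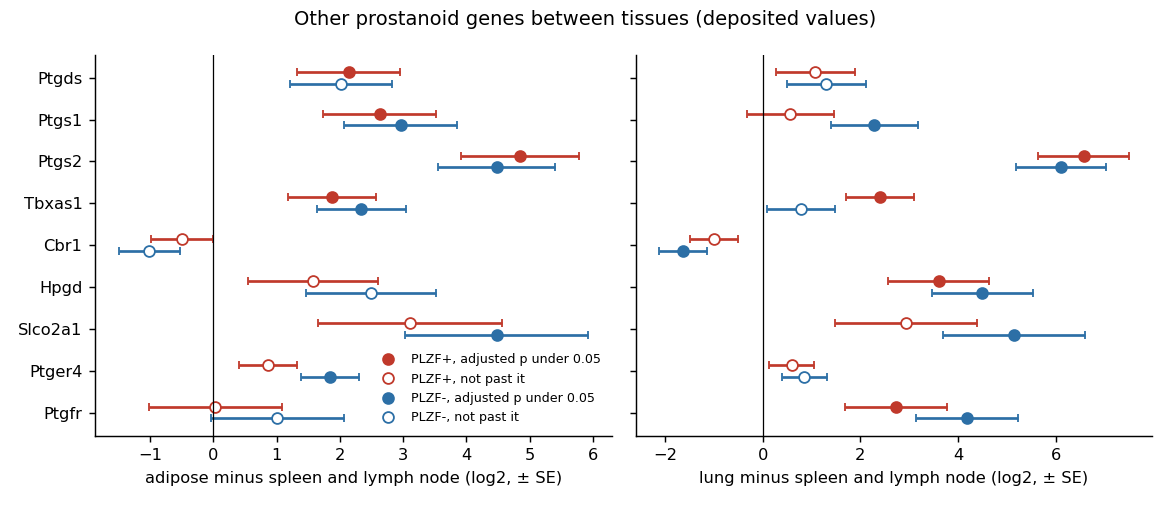
Log2 difference (± SE) of 9 other prostanoid genes between adipose tissue (left) or lung (right) and the average of spleen and lymph node, in PLZF+ (red) and PLZF- (blue) cells; filled points have an adjusted p under 0.05. Ptgs2 has the highest values for lung, 6.11 and 6.57, and Cbr1 lies below 0 in all 4.

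The remaining lists held few PLZF differences. Of 84 genes in the 7 lists without the pair, 31 were tested, and 2 passed in the PLZF comparison over 4 tissues, both higher in PLZF+ cells: Ccr6 (1.58 ± 0.31, limma adjusted p = 0.0132), a chemokine receptor, and Il17a (2.52 ± 0.54, adjusted p = 0.0228), which encodes IL-17A. Of all genes 0.632% were higher and 0.546% lower. Neither passed without lung libraries 2 and 3, where 0 of the 31 genes did. The median difference of the 31 was 0.28 beside 0.08 for all genes tested. Within single tissues 0 of 31 passed (limma; 3, 6, 9 and 2 had an unadjusted p under 0.05 in adipose tissue, lung, spleen and lymph node), and limma voom on recovered reads called 3 in all. In those tissues 0.0854%, 0.0341%, 0.137% and 0.273% of all genes passed, and 0.0171%, 0.0341%, 0.137% and 0.102% were higher in PLZF+ cells; 0.0683% were lower in adipose tissue, 0% in lung and in spleen, and 0.171% in lymph node. Of 10 G protein signalling genes none passed; Rgs1, a brake on G protein signals, had 0.80 ± 0.23 (adjusted p = 0.106) and Gna13, which encodes a G protein subunit that thromboxane receptors couple to, 0.50 ± 0.17 (adjusted p = 0.266). Of 4 leukotriene genes none passed, with Alox5, which encodes 5-lipoxygenase, at -0.55 ± 0.56 (adjusted p = 0.971) and its partner Alox5ap at -0.55 ± 0.70 (adjusted p = 0.973). Of 4 type 2 genes none passed: Il5, a type 2 cytokine gene, had -1.58 ± 0.54 (adjusted p = 0.256) and the growth factor gene Areg 0.73 ± 0.49 (adjusted p = 0.828). Il5 was at 0 in all libraries of PLZF+ lung, of PLZF- lymph node and of spleen in both subsets. It was at 167.1, 28.17 and 3.935 normalized reads in PLZF- adipose tissue, a group with 0 to 4 reads of Ptgdr2.

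Between tissues, 18 of the 31 genes passed for adipose tissue in PLZF+ cells (14 higher, 4 lower) and 15 for lung, all higher. Of all genes 25.3% were higher and 8.88% lower in the first comparison, and 31.6% and 6.2% in the second. In PLZF- cells 21 passed for adipose tissue (16 higher, 5 lower) and 22 for lung (17 higher, 5 lower), beside 25.9% higher and 12.5% lower of all genes for adipose tissue and 61.5% and 15.9% for lung. The median difference of the 31 genes was 1.78, 1.21, 2.16 and 2.28 in that order, beside the medians of all genes given above. With quantile scaling 12 passed for adipose tissue (6 higher, 6 lower) and 11 for lung (10 higher, 1 lower) in PLZF+ cells, and 15 (9 higher, 6 lower) and 17 (9 higher, 8 lower) in PLZF- cells. Of all genes 9.1% were then higher and 16.5% lower, 6.73% and 14.1%, 13.7% and 19.5%, and 11.5% and 20.5%, in the same order. Ptgdr2 and Tbxa2r were negative in all 4, from -3.30 to -2.55 and from -4.40 to -2.02, given as a description; with quantile scaling they ran from -4.78 to -3.73 and from -6.37 to -3.58. Per 1000 CD3 reads the Ptgdr2 means of adipose tissue and spleen were 11.5 ± 12.4 and 11.1 ± 3.5 in PLZF+ cells, and 2.1 and 1.76 in PLZF- cells. In PLZF+ adipose tissue library 3 had 25.8, from 13 reads. Libraries 1 and 2 had 5.52 and 3.24, below every PLZF+ spleen library (7.78 to 14.7). The PLZF- adipose mean rests on 4, 3 and 0 reads of Ptgdr2, so no order of adipose tissue and spleen is set on this scale. The lung values of Tbxa2r were -2.02 in PLZF+ and -4.40 in PLZF- cells and became -0.83 and -1.76 without lung libraries 2 and 3. These 76 calls fell to 46 without lung libraries 2 and 3 and to 49 without adipose libraries 2 and 3.

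The genes most like Ptgdr2 over the 24 libraries, by Pearson correlation of log2 of normalized reads plus 1 among 2659 named genes with a mean of at least 10, were Lgals3bp (0.849), Cd3e (0.834), Cacnb1 (0.834), Tespa1 (0.827) and Cntnap1 (0.823). Lgals3bp encodes a secreted galectin-binding protein, Cd3e a CD3 chain, Cacnb1 a calcium channel subunit, Tespa1 a protein of T cell receptor signalling and Cntnap1 a membrane protein of nerve fibres. Cntnap1 had 46.91, 79.07 and 100.8 normalized reads in PLZF+ lymph node, against 42.5, 73.89 and 80.41 in the PLZF- cells, so it shared the tissue pattern of Ptgdr2 and overlapped between subsets there. Tbxa2r was most like B4galt7 (0.936), a glycosyltransferase, Idnk (0.925), a gluconate kinase, Rpl4 (0.913), a ribosomal protein, Cnn2 (0.912), a calponin, and Gtpbp1 (0.912), a GTP-binding protein. B4galt7 overlapped between subsets in spleen, where PLZF- libraries held 101.5, 50.8 and 124.6 normalized reads and the PLZF+ ones 45.24, 63.1 and 46.2. All genes of a library share its depth and its cell content, which was not measured, and of each 5 names 1 stayed among the first 5 on the deposited scale. Between Ptgdr2 and Tbxa2r the correlation was 0.34 over 24 libraries, 0.6 within the 12 PLZF+ and 0.69 within the 12 PLZF- libraries.

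A neighbour of Ptgdr2, noticed after its values were seen, had a like pattern. Zp1, which encodes an egg coat protein, lies on the minus strand of chromosome 19 at 10914287 to 10920632, 16528 bases from Ptgdr2. RefSeq places the first start of Ptgdr2, from predicted transcripts, at 10924519, which is 3887 bases from the 5′ end of Zp1. Zp1 held 45.38, 62.63 and 57.89 normalized reads in PLZF+ lymph node, from 89, 80 and 93 reads, and 1.889, 6.568 and 2.821 in PLZF- lymph node. Spleen libraries had 10.6, 6.368 and 8.008 if PLZF+, against 0.4124, 1.195 and 0 if PLZF-, while PLZF+ adipose libraries had 0 reads. PLZF+ lung libraries had 7.926, 3.201 and 0, against 0.6203, 0 and 0 in PLZF- lung, and PLZF- adipose libraries held 2, 1 and 0 reads. PLZF+ lay above PLZF- without overlap in lymph node and spleen; the lung groups overlapped, and the adipose counts are too low for an order. Its correlation with Ptgdr2 was 0.803, which would place it 13th in the ranking above had its mean of 9.07 reached 10, while the other analysed genes within 250 kb (Tmem132a, Cd6, Ms4a8a and Cd5) had -0.498 to 0.253. Near Tbxa2r, Matk, a kinase gene 65366 bases away, had 0.673.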

How the data were processed

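Expression was measured by Smart-seq2 in 24 libraries. The submitters' processing notes list the build mm10 and the tools Cufflinks 1.2, SAMtools 1.2 and HISAT 0.1.6. The deposited table holds log2 values of 7926 genes with the authors' p-value and q-value per gene, and per the file headers these are TMM normalized. A one-way test over the 4 tissues returned the authors' p-value for 7915 genes (99.86%); the 11 others are merged entries and were excluded from tests. In the authors' deposited table Ptgdr2 has q = 0.00572 and Tbxa2r q = 0.00946.

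Each deposited value equals log2 of reads plus 0.5, plus a library and a gene term, so whole reads were recovered (within 0.1 read, fixed by at least 10 libraries). With at least 6 libraries 7925 genes were recovered, totals were 56920 to 837955 and no value of Ptgdr2 or Tbxa2r changed; the stricter number was set after values were seen.

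A model of 8 group means with a variance trend was fitted in limma 3.58.1 under R 4.3.3, with Benjamini-Hochberg adjustment and a threshold of 0.05, on 5858 genes that reached a linear value of 1 in 3 libraries or more. The planned filter did not name its scale. It was first read as a log2 value of at least 1 (5007 genes), and the linear reading was taken after those results were seen; the first reading is kept as an alternative. The recovery and the fit were tested on simulated data. Alternatives were other filters, scalings, pseudocounts, voom, library weights, replicate blocks and libraries left out.

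Genes named are the pair, all tested prostanoid receptor, synthesis and transport or breakdown genes, genes past the PLZF test or else the 2 smallest adjusted p of other lists, and the 5 most similar genes for each of the pair. The pair and the lists were chosen with earlier results of these data known. Levels are mean ± SD over libraries, and differences ± SE. Replicate pairs differed beyond sampling noise (chi-square per gene 4.1 to 152). A second deposited file, which lists p-values and q-values by gene symbol, was not used.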

Additional observations from a re-analysis of the deposited data

How the results depend on the processing

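Ptgdr2 and Tbxa2r were chosen with their values in all tissues in view, so a test on them is not independent of the choice. A miss does not show that the tissue differences are equal. The interaction of PLZF and tissue missed the threshold for both genes under all alternatives run. Its adjusted p (limma) for Ptgdr2 ran from 0.871 to 1.0. For Tbxa2r it was 0.222 to 0.979 with single libraries left out, 0.0545 with library weights, 0.966 without lung libraries 2 and 3 and 0.703 without adipose libraries 2 and 3, both chosen after seeing the data. The first reading of the filter, kept as an alternative, gave 0.965 and 0.815. Ptgdr2 over 4 tissues stayed between 1.91 and 2.88 and Tbxa2r between -2.16 and -1.18. The lung difference of Tbxa2r (-0.03) changed sign: it was 0.36 with quantile scaling, 0.76 and 0.18 on recovered reads plus 1 and plus 5, 1.29 with library weights, 1.04 without PLZF+ lung library 2, and -0.70 to 1.29 over all single libraries left out, the highest without PLZF- lung library 1. The cause was not tested.

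The numbers of genes called moved with the fit. For the interaction (4 genes) it was 0 with quantile scaling, with voom and without lung libraries 2 and 3, 1 without adipose libraries 2 and 3, 2 on recovered reads plus 1 or plus 5, 404 with library weights, and 0 (each spleen library, PLZF- lung library 3 or PLZF+ lymph node library 2) to 17 (PLZF- lung library 1) with single libraries left out. For PLZF over 4 tissues (69 genes) it was 36 with quantile scaling, 120 with voom, 198 with weights, 38 without lung libraries 2 and 3, and 37 to 75 with single libraries left out. Of the 31 pathway genes, the 2 called over 4 tissues became 1 with quantile scaling, 4 with weights, 0 without lung libraries 2 and 3, and 1 to 3 with single libraries left out. It was 1 without PLZF+ spleen library 1 or 2, PLZF+ lymph node library 2 or PLZF- lymph node library 3. For calls within and between tissues the alternatives were added after seeing the data. The 0 called within tissues became 2 on reads plus 1 or plus 5, 3 with voom, 11 with weights, 1 without adipose libraries 2 and 3, and 0 to 2 with single libraries left out. The 76 calls between tissues became 46 without lung libraries 2 and 3 and 49 without adipose libraries 2 and 3.

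Same-numbered libraries of the subsets did not all deviate together: correlations were 0.147 to 0.630 in adipose tissue, 0.218 to 0.511 in lung and 0.189 to 0.341 in lymph node, all over 0.1, but -0.059 to -0.019 in spleen, so the numbers were not taken as pairs. With a replicate block the adjusted p of the interaction was 0.934 for Ptgdr2 and 0.595 for Tbxa2r, and 5 genes passed it; with a block within tissue these were 0.919, 0.333 and 0. The block gave 84 genes over 4 tissues, 3 pathway genes there and 1 within tissues. The block within tissue gave 112, and 1 pathway gene within tissues. Its 30 calls between tissues compare libraries 1 and not group means, so they are no check of the main fit.

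In the order of the 8 groups, 4 kept their place for Ptgdr2 and 8 for Tbxa2r on deposited values, and 4 and 3 without lung libraries 2 and 3. Depth limits the lung groups most, since a count of 0 in their shallow libraries allows 9.12 to 17.66 normalized reads.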
